A study of Mus musculus with 4 samples.

Results

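Described here are the genes of tumour necrosis factor (TNF), its receptors and the machinery of necroptosis, in neutrophils from mouse bone marrow given amyloid-beta 40 or solvent. The set holds 10 genes taken by symbol from the raw count table, namely Tnf, Tnfrsf1a, Tnfrsf1b, Tradd, Traf2, Ripk1, Fadd, Casp8, Ripk3 and Mlkl, out of 54532 genes in the table. All 10 symbols occurred there once, and all 10 passed the filter on low counts that left 13479 genes for testing. The study measured RNA by sequencing in 4 libraries of wild-type cells. Of these, 2 were labelled DMSO, a solvent, and 2 were labelled Aβ40, a fragment that secretases release from the amyloid precursor protein. The series' design text gives the exposure as 20 µg/ml for 4 h. It addresses how the peptide leads neutrophils to cast extracellular traps, chromatin webs released to the outside. The mouse strain, age and sex, the way the cells were purified, and how long the DMSO cells were exposed were not found in the labels or the design text. Nothing states that the libraries of a group are separate mice or cultures, so the tests below capture the spread among these 4 libraries, part of which may be technical.

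TNF is made as a membrane protein that a protease sheds, and it binds the receptors TNFR1 (Tnfrsf1a) and TNFR2 (Tnfrsf1b). TNFR1 carries a death domain that recruits TRADD, RIPK1 and TRAF2 and signals to NF-kB, while FADD and caspase-8 can form a second complex that leads to apoptosis. Where caspase-8 is blocked, RIPK1 binds RIPK3, RIPK3 phosphorylates the pseudokinase MLKL, and MLKL breaches the plasma membrane, a form of cell death called necroptosis. TNF primes neutrophils and is also one of their own products.

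Total counts ran from 17212264 to 19524125 per library, and 1 count was worth between 0.0523 and 0.0585 CPM (counts scaled to a common library size, with library factors by trimmed means, TMM). The lowest count of any of the 10 genes in a library was 129 (Fadd, Aβ40 1), where counting error alone is 8.80%, and the highest was 13663 (Tnfrsf1b, DMSO 1). The 14 neutrophil markers summed to between 103855 CPM in DMSO 2 and 149460 CPM in Aβ40 1, with none at 0. DMSO 2 stood apart in this sum, which rests largely on a few abundant genes. The most abundant, S100a8 and S100a9, had 30005 and 27539 CPM in DMSO 2 and 42826 and 48046 CPM in Aβ40 1. Mmp8, Mmp9, Cxcr2 and Csf3r were higher in DMSO 2 than in DMSO 1, and the rest were lower. Of the 14 markers, 4 (Mpo, Mmp9, Cxcr2 and Csf3r) were lower in both Aβ40 libraries and 2 (S100a9 and Ly6g) were higher. Over genes, the rank correlation of DMSO 1 with DMSO 2 (0.978) was below that of DMSO 1 with Aβ40 2 (0.982). Markers of other marrow cells were also present, and the sums for B cells, eosinophils and T and NK cells were higher in both Aβ40 libraries. Marker by marker, this held for 9 of the 11 tested T and NK cell genes, while Nkg7 and Cd4 overlapped. The summed CPM of 12 B cell markers was 562 and 645 with DMSO against 1235 and 1242 with Aβ40, and that of 8 eosinophil markers was 1623 and 1365 against 3566 and 3611. For 12 T and NK cell markers the sums were 71.0 and 69.1 against 109 and 114 CPM, with Ncr1 at 0 in DMSO 2. For 12 monocyte and macrophage markers the sums overlapped, at 1032 and 1160 against 1261 and 1090. Single markers went both ways: 5 of these markers (Ly86, C1qa, C1qb, C1qc and Mrc1) were higher in both Aβ40 libraries. Another 2 (Csf1r and Cx3cr1) were lower in both. Beside these marker counts, 23.2% of all tested genes were higher and 21.9% were lower in both Aβ40 libraries. Calls were made for 5 of the 12 B cell, 1 of the 8 eosinophil, 1 of the 11 tested T and NK cell and 0 of the 12 monocyte and macrophage markers, all higher. The part of these cells in the values below was not tested, and fewer cells of a type cannot be told apart from less RNA per cell in such bulk samples.

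With Aβ40, 0 of the 10 genes were higher and 0 were lower at a Benjamini-Hochberg adjusted p under 0.05 (edgeR quasi-likelihood test over all genes). In the same fit 0.126% of tested genes were called higher and 0% lower. At an unadjusted p under 0.05 the count in this fit was also 0 of 10, against 1648 of 13479 genes. After adjustment DESeq2, limma-voom and edgeR's likelihood ratio test called 0 of the 10, and their unadjusted counts were 1, 1 and 0. The smallest adjusted p of the set was 0.420, for Tnfrsf1b. The 95% confidence intervals of the folds, Aβ40 over DMSO, all held 1 and together spanned 0.577 to 1.67. In this fit a 2-fold difference in either direction thus lay outside the interval of every one of the 10 genes. These intervals rest on the spread among these 4 libraries, so a 2-fold difference is not excluded beyond them. The 10 log2 fold changes ran from -0.39 to 0.30 with a median of 0.08, beside a median of 0.01 over all genes tested. For the lists below, 6595 of all 13479 tested genes had a negative log2 fold change. In 2 of the 10 genes, the receptors Tnfrsf1a and Tnfrsf1b, both Aβ40 libraries lay below both DMSO libraries, and in 1, Traf2, both lay above. Among all tested genes 21.9% had such a gap with Aβ40 lower and 23.2% with Aβ40 higher, so neither count stood out from the background.

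**Figure D1:**
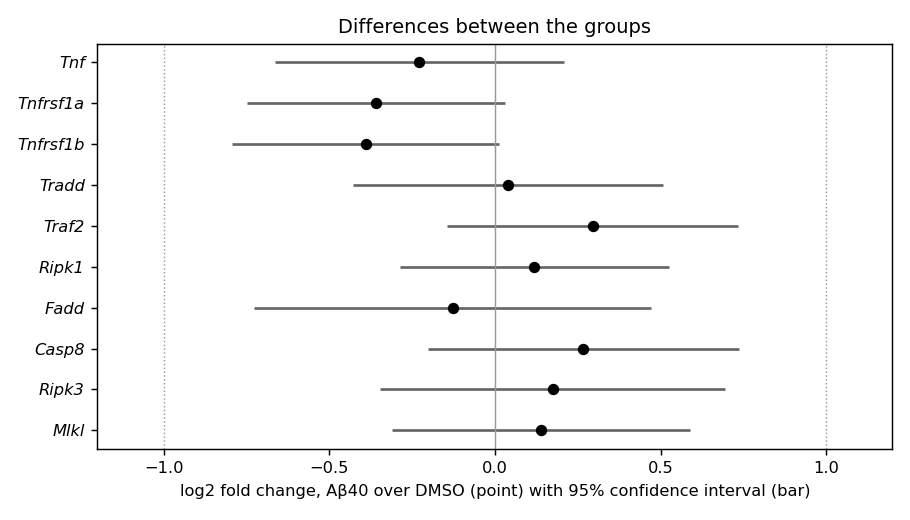
Log2 fold change of each of the 10 genes, Aβ40 over DMSO (points, 2 libraries per group), with the 95% confidence interval from the edgeR fit (bars). Every bar crosses 0 and none reaches the dotted lines that mark a 2-fold difference.

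Tnf, the ligand (ENSMUSG00000024401, mm10 chr17:35199381-35202007, minus strand, 4 exons), had 130 and 95.1 CPM with solvent (DMSO 1, DMSO 2) and 96.5 and 95.3 CPM with peptide (Aβ40 1, Aβ40 2). DMSO 1 was thus the one high library, and DMSO 2 lay within 1.5 CPM of both Aβ40 libraries. The mean was 112 ± 24.3 CPM in the DMSO group and 95.9 ± 0.784 CPM in the Aβ40 group (SD, n = 2 per group). The log2 fold change was -0.23 (SE 0.19; edgeR, Benjamini-Hochberg adjusted p = 0.658). The difference rested on DMSO 1: without it the log2 fold change was 0.01, and without DMSO 2 it was -0.44.

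Around the ligand stood the genes that shape and shed it, in a list of 7 of which 5 were tested. Of these, 0 were called in either direction, all 5 had a negative log2 fold change and the list's median was -0.26. In 4 of the 5 both Aβ40 libraries lay below both DMSO libraries, as in 21.9% of all tested genes, and nothing is read from so short a list. Adam17, the protease that sheds TNF, had 242, 228, 226 and 211 CPM in DMSO 1, DMSO 2, Aβ40 1 and Aβ40 2, a log2 fold change of -0.10 (SE 0.17). Rhbdf2, or iRhom2, which carries that protease to the cell surface, had 82.3 and 99.0 CPM with DMSO and 49.3 and 65.3 CPM with Aβ40. Its log2 fold change of -0.66 (SE 0.20) was the widest of the list (edgeR, Benjamini-Hochberg adjusted p = 0.322). Frmd8, which stabilises the iRhom and protease complex, had 71.2 and 75.7 against 57.1 and 52.6 CPM, at -0.42 (SE 0.17). Ltb, lymphotoxin beta, a related ligand, was at -0.26 (SE 0.17). Without DMSO 1, Rhbdf2 was at -0.79, and without DMSO 2 it was at -0.53. It was at -0.47 without Aβ40 1 and at -0.90 without Aβ40 2. Leaving out single libraries moved Adam17 between -0.16 and -0.06 and Ltb between -0.37 and -0.14. Lta and Timp3 stayed below 1 CPM in each library and were not tested.

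The sequence before the start site is shown for the ligand and for Tnfrsf1b, the most abundant receptor and a member lower in both Aβ40 libraries, because their motifs differ. Each run is the 250 bases before the RefSeq start (GRCm38.p6, the assembly behind mm10), 5′ to 3′ on the gene's strand, and capitals mark motif matches on either strand. The windows are chr17:35202008-35202257 (minus) for Tnf and chr4:145246871-145247120 (minus) for Tnfrsf1b.
Tnf: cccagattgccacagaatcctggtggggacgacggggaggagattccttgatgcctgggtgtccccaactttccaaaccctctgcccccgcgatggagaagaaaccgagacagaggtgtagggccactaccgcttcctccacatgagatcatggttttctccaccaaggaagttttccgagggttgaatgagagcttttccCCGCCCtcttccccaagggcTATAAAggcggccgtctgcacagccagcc
Tnfrsf1b: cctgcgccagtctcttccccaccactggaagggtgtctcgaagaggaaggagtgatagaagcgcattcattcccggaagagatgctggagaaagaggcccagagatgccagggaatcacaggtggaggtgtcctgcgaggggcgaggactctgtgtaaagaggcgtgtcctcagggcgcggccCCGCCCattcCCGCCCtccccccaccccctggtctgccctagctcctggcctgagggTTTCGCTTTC

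The capitals in Tnf are a TATA box (TATAAA), whose first base is 29 bases before the start, and a GC box (GGGCGG, here on the other strand). Among 32851 mouse promoters of the same length, 12.4% held this TATA box and 32.7% a GC box. In Tnfrsf1b the capitals are a pair of GC boxes and an interferon response element (GAAA, any 2 bases, GAAA, on the other strand), which 2.98% of promoters held. The window of Tnfrsf1a, which held none of the motifs searched, begins inside an annotated transcript of the gene and so is not wholly upstream. The Casp8 window and the second Ripk1 window also lie inside the annotated span of the gene. Those of Fadd and Ripk3 overlap the first bases of that span, so the motif counts are not all from upstream sequence. Entries were found for 9 of the 10 genes (10 promoters, Ripk1 having 2), with none for Tradd. Tnf was the single one with a TATA box and Tnfrsf1b the single one with the interferon element, while Fadd, Ripk1 and Ripk3 also held GC boxes. The NF-kB consensus, AP-1 (TGANTCA), C/EBP (TTGCNNAA) and the PU.1 core (GAGGAAGT) matched none of the 10 windows and 7.25%, 6.75%, 9.56% and 2.44% of all promoters. The searched motifs did not overlap each other in the runs shown.

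Tnfrsf1b, the gene of TNFR2 (ENSMUSG00000028599, chr4:145213463-145246870, minus strand, 10 exons), had 732 and 727 CPM with DMSO against 547 and 566 CPM with Aβ40. The libraries of each group lay close together and the groups did not overlap. The log2 fold change was -0.39 (SE 0.18; 95% interval -0.79 to 0.01; edgeR, Benjamini-Hochberg adjusted p = 0.420), a fold of 0.763. Leaving out each library in turn kept it between -0.43 and -0.37, without a call. Tnfrsf1a, the gene of TNFR1, the receptor with the death domain (ENSMUSG00000030341, chr6:125349362-125362484, plus strand, 11 exons), had 156 and 179 CPM with DMSO against 124 and 137 CPM with Aβ40. The groups again did not overlap, though the distance between DMSO 1 and Aβ40 2 was smaller than that between the DMSO libraries. The log2 fold change was -0.36 (SE 0.17; 95% interval -0.75 to 0.03; edgeR, Benjamini-Hochberg adjusted p = 0.439), and it ran from -0.45 to -0.27 without single libraries.

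The receptors kept nearly the same proportion to each other. On the FPKM scale (fragments scaled by gene length and by effective library size), Tnfrsf1b stood at 3.18, 2.76, 2.99 and 2.81 times Tnfrsf1a in DMSO 1, DMSO 2, Aβ40 1 and Aβ40 2, and the groups overlapped. In the list of 15 TNF receptor family genes, all tested, 0 were called, 10 had a negative log2 fold change and the median was -0.19. Fas, the death receptor for FAS ligand and the most abundant of the list after Tnfrsf1b, had 198 and 171 CPM with DMSO and 223 and 192 CPM with Aβ40, at 0.17 (SE 0.18). Tnfrsf26, another member of the family, was nearly level, between 82.0 and 84.3 CPM in all 4 libraries. Cd40, a receptor of B cells and other antigen-presenting cells, had 29.7 and 29.6 CPM with DMSO and 46.2 and 35.3 CPM with Aβ40. Its log2 fold change was 0.46 (SE 0.20; edgeR, Benjamini-Hochberg adjusted p = 0.410), and the B cell markers summed above were higher in the same libraries. Ltbr, the lymphotoxin beta receptor, was at -0.37 (SE 0.20). These values depended on the libraries: leaving out each in turn gave 0.06 to 0.28 for Fas, 0.25 to 0.62 for Cd40 and -0.51 to -0.22 for Ltbr, without a call.

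The adaptors of the receptor complex showed narrower differences. Tradd, which bridges TNFR1 to RIPK1 and TRAF2 (ENSMUSG00000031887, chr8:105258286-105264609, minus strand, 5 exons), had 21.1 and 20.1 CPM with DMSO and 19.6 and 22.7 CPM with Aβ40. Both Aβ40 values enclosed the DMSO values, and the log2 fold change was 0.04 (SE 0.21). Traf2, a ubiquitin ligase adaptor that brings the cIAP proteins to both receptors (ENSMUSG00000026942, chr2:25517982-25546940, minus strand, 10 exons), had 28.7 and 30.0 CPM with DMSO against 32.8 and 39.2 CPM with Aβ40. This was the one member higher in both Aβ40 libraries, with a log2 fold change of 0.30 (SE 0.19; edgeR, Benjamini-Hochberg adjusted p = 0.568). The value was 0.14 without Aβ40 2 and 0.42 without Aβ40 1. Ripk1, the kinase that can signal survival or death (ENSMUSG00000021408, chr13:34002363-34037147, plus strand, 12 merged exon blocks), had 56.6 and 63.7 CPM with DMSO and 70.7 and 59.9 CPM with Aβ40. The groups overlapped, at 0.12 (SE 0.18). Ripk1 shares 241 exon bases, 2.89% of its exons, with Serpinb6a on the opposite strand, which had 804 to 1386 counts, and 511, or 6.12%, with the pseudogene Gm17084 on its own strand, which had 0 counts in each library. How reads in the shared bases were assigned is not given in the labels.

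In the list of 21 genes of the receptor signalling complex, 0 were called, 12 had a negative log2 fold change and the median was -0.08. In 9 of the 21 both Aβ40 libraries lay below both DMSO libraries, and in 3 above, beside 21.9% and 23.2% of all tested genes. Ikbke, a kinase related to the IKK subunits, had 310 and 226 CPM with DMSO and 158 and 192 CPM with Aβ40, at -0.62 (SE 0.21; edgeR, Benjamini-Hochberg adjusted p = 0.334), with DMSO 1 highest. Rnf31, the catalytic subunit of the linear ubiquitin ligase, had 81.4 and 89.6 against 51.6 and 69.4 CPM, at -0.50 (SE 0.19). Mapkapk2, the kinase that stabilises Tnf RNA and restrains RIPK1, was the most abundant of the list, with 630 and 748 against 508 and 566 CPM, at -0.36 (SE 0.19). Birc3, or cIAP2, a ligase for RIPK1, was at 0.03 (SE 0.18). Without DMSO 2, Ikbke was at -0.83, and without DMSO 1 it was at -0.37. It was at -0.48 without Aβ40 1 and at -0.78 without Aβ40 2. The same leave-outs gave -0.74 to -0.30 for Rnf31 and -0.48 to -0.24 for Mapkapk2.

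Brakes on the complex formed a list of 10 deubiquitinases, adaptors and ubiquitin ligases, of which 0 were called and 8 had a negative log2 fold change. The median was -0.17. Tnip1, an adaptor of the deubiquitinase A20, had 189 and 184 CPM with DMSO and 120 and 135 CPM with Aβ40, at -0.55 (SE 0.17; edgeR, Benjamini-Hochberg adjusted p = 0.324). It was at -0.53 without DMSO 1 and at -0.57 without DMSO 2, in fits that rest on a single DMSO library. Spata2, which links the deubiquitinase CYLD to the linear ubiquitin ligase, had 15.3 and 18.0 against 10.6 and 11.0 CPM, at -0.63 (SE 0.23). Rnf11, a ubiquitin ligase that works with A20, was at -0.33 (SE 0.17), and Tax1bp1, another partner of A20 and the most abundant of the list, was at 0.23 (SE 0.19). Without single libraries Tax1bp1 ran from 0.03 (without Aβ40 1) to 0.39 and Rnf11 from -0.44 to -0.21. Tnip1 was at -0.47 without Aβ40 1 and at -0.65 without Aβ40 2.

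The death complex showed its largest spread between the solvent libraries. Casp8, the protease that starts apoptosis and cuts RIPK1 and RIPK3 (ENSMUSG00000026029, chr1:58795374-58847503, plus strand, 11 merged exon blocks), had 68.8 CPM in DMSO 1 and 99.6 CPM in DMSO 2, against 106 and 96.5 CPM with Aβ40. DMSO 1 was the one low library, and the groups overlapped. The log2 fold change was 0.27 (SE 0.21; edgeR, Benjamini-Hochberg adjusted p = 0.631). Without DMSO 2 it was 0.55 and without DMSO 1 it was 0.02, so the solvent library kept for comparison set the value. Fadd, the adaptor that joins caspase-8 to death receptors (ENSMUSG00000031077, chr7:144577318-144582463, minus strand, 2 exons), was the scarcest member, with 154, 184, 129 and 173 counts in DMSO 1, DMSO 2, Aβ40 1 and Aβ40 2. These were 8.25, 9.89, 7.55 and 9.05 CPM, which overlapped, at a log2 fold change of -0.13 (SE 0.26). Its antisense partner Faddos had at most 5 counts in a library.

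Of the 8 genes in the death complex list 0 were called and 5 had a positive log2 fold change. The median was 0.10. Cflar, the caspase-8 inhibitor c-FLIP, had 147 and 156 CPM with DMSO and 128 and 129 CPM with Aβ40, at -0.23 (SE 0.16). Xiap, a caspase inhibitor, had 144 and 160 against 138 and 111 CPM, at -0.28 (SE 0.18), and ran from -0.45 to -0.15 without single libraries. For both inhibitors the Aβ40 libraries lay below the DMSO libraries, as in 21.9% of all tested genes, and neither passed the test.

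The effectors of necroptosis were both present and overlapped between the groups. Ripk3, the kinase that phosphorylates MLKL (ENSMUSG00000022221, chr14:55784995-55788865, minus strand, 10 exons), had 28.1 and 41.4 CPM with solvent (DMSO 1, DMSO 2) and 35.8 and 42.6 CPM with peptide (Aβ40 1, Aβ40 2). DMSO 1 was lowest, and the other DMSO library lay between the Aβ40 libraries. The log2 fold change was 0.17 (SE 0.23; 95% interval -0.35 to 0.70; edgeR, Benjamini-Hochberg adjusted p = 0.795), and it was -0.08 without DMSO 1 and 0.47 without DMSO 2. Mlkl, the pseudokinase that permeabilises the membrane (ENSMUSG00000012519, chr8:111311797-111338177, minus strand, 13 merged exon blocks), had 42.8, 33.4, 39.5 and 44.4 CPM in the same order. Here DMSO 2 was lowest, opposite to Ripk3. The log2 fold change was 0.14 (SE 0.20; 95% interval -0.31 to 0.59; edgeR, Benjamini-Hochberg adjusted p = 0.815), with 0.33 without DMSO 1 and -0.03 without DMSO 2. The FPKM ratio of Mlkl to Ripk3 was thus 1.52 in DMSO 1 and 0.804 in DMSO 2, wider apart than the 1.10 and 1.04 of the Aβ40 libraries.

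The necroptosis list, with activators, chaperones, regulators and membrane repair genes around this pair, held 18 tested genes, of which 0 were called and 11 had a negative log2 fold change. Its median was -0.14. Zbp1, a nucleic acid sensor that can activate RIPK3 without TNF, had 76.0 and 64.6 CPM with DMSO against 108 and 95.8 CPM with Aβ40. Its log2 fold change was 0.54 (SE 0.18; edgeR, Benjamini-Hochberg adjusted p = 0.333). It was 0.66 without DMSO 1, 0.42 without DMSO 2, 0.45 without Aβ40 1 and 0.61 without Aβ40 2. Stub1, or CHIP, a ligase that marks RIPK3 for degradation, had 16.7 and 16.6 against 8.83 and 11.1 CPM, at -0.73 (SE 0.24; adjusted p = 0.330). Hsp90ab1, a chaperone of RIPK kinases and MLKL and the most abundant of the list, had 692 and 571 against 446 and 571 CPM. Its log2 fold change was -0.31 (SE 0.21) and ran from -0.52 to -0.14 without single libraries. The other HSP90 gene of the list, Hsp90aa1, went the opposite way, with 303 and 334 against 485 and 391 CPM. It was at 0.46 (SE 0.19) and was not called. Chmp4b, a subunit of the ESCRT-III complex that repairs membrane, was at -0.21 (SE 0.22), with DMSO 1 highest at 580 CPM.

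**Figure D2:**
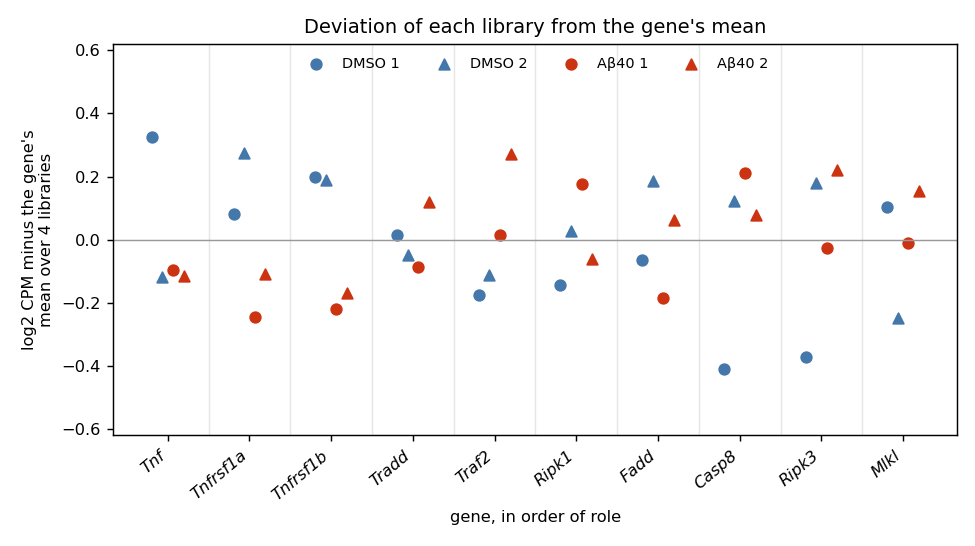
Deviation of each library's log2 CPM from the gene's mean over the 4 libraries, for the 10 genes ordered by role (blue, DMSO; red, Aβ40; circles, library 1; triangles, library 2). The receptors separate by colour, while DMSO 1 (blue circle) lies alone at the top for Tnf and at the bottom for Casp8 and Ripk3.

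The spread between the solvent libraries was as wide as most of the differences between groups. In 7 of the 10 genes DMSO 1 and DMSO 2 differed by more than the groups did on the log2 scale, which also held for 52.7% of all tested genes. In 6 of the 10 the gap between the DMSO libraries was wider than that between the Aβ40 libraries, against 60.8% of all tested genes. As log2 of DMSO 2 over DMSO 1, the widest gaps were in Ripk3 (0.55), Casp8 (0.53), Tnf (-0.44) and Mlkl (-0.35). Ripk3 and Casp8 were thus lower in DMSO 1, and Tnf and Mlkl were higher there. The narrowest was in Tnfrsf1b (-0.01).

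Levels between genes can be compared per length, on the deposited FPKM scale, and the order held in each library except between neighbours whose ranges overlapped. Tnfrsf1b was highest in each library, with 191, 190, 141 and 147 FPKM in DMSO 1, DMSO 2, Aβ40 1 and Aβ40 2, a mean above that of 97.6% of tested genes. Tnf, with a mean of 63.0 FPKM, and Tnfrsf1a, with 57.0 FPKM, followed, and their ranges of 57.5 to 78.7 and 47.2 to 68.6 FPKM overlapped. Casp8 came next at 23.7 to 36.0 FPKM, separate from the genes above and below it. Mlkl (14.5 to 19.1 FPKM) and Ripk3 (12.2 to 18.4 FPKM) could not be ordered. Tradd lay at 10.3 to 12.0 FPKM, Ripk1 at 6.75 to 8.33 FPKM and Traf2 at 5.60 to 7.60 FPKM, the last pair overlapping. Fadd was lowest, at 1.90 to 2.52 FPKM, a mean above that of 37.9% of tested genes.

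**Figure D3:**
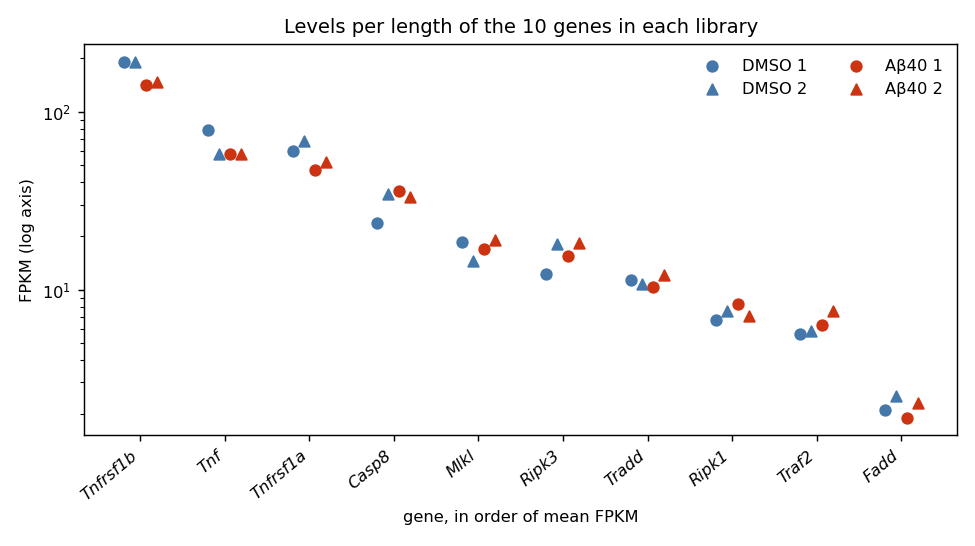
FPKM (log axis) of the 10 genes in each library, ordered by mean (blue, DMSO; red, Aβ40; circles, library 1; triangles, library 2). Tnfrsf1b tops every library at 141 to 191 FPKM and Fadd is lowest at 1.90 to 2.52 FPKM.

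Proportions between partners were computed as FPKM ratios within each library, and their size depends on the same merged exon lengths. Ripk3 stood at 1.81 to 2.59 times Ripk1, and Casp8 at 1.80 to 2.35 times Ripk3. The ratio of Casp8 to Fadd was 11.2 and 13.6 with DMSO and 19.0 and 14.4 with Aβ40, and that of Tradd to Traf2 was 2.01 and 1.83 with DMSO and 1.64 and 1.58 with Aβ40. In these ratios, 2 of 9 computed, the groups did not overlap. Among single tested genes the groups did not overlap in 21.9% with Aβ40 lower and 23.2% with Aβ40 higher. No such share was computed over ratios, and the 9 ratios share genes, so nothing is read from the count. With 2 libraries against 2 an exact permutation test cannot give a two-sided p below 0.333, so no test was made.

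Genes that TNF can induce through NF-kB formed the last list. Whether their levels here reflect TNF signalling was not tested. Of 22 such genes, all tested, 0 were called and 16 had a negative log2 fold change, beside 6595 of all 13479 tested genes. In 7 of the 22 both Aβ40 libraries lay below both DMSO libraries, and in 1 above, beside 21.9% and 23.2% of all tested genes. The median was -0.14. Il1b, the interleukin-1 beta gene, had 1578 and 1337 CPM with DMSO and 1551 and 1218 CPM with Aβ40, at -0.07 (SE 0.21). Cd44, an adhesion receptor and the most abundant of the list, had 2064 and 1592 against 1427 and 1428 CPM, at -0.36 (SE 0.21). Nfkb1 and Nfkb2, the precursors of NF-kB subunits, were at -0.45 (SE 0.18) and -0.48 (SE 0.21), with both Aβ40 libraries below both DMSO libraries in each (edgeR, Benjamini-Hochberg adjusted p = 0.376 and 0.403). Without DMSO 2, Cd44 and Nfkb1 were at -0.54 and -0.58, and without DMSO 1 Nfkb2 was at -0.72. With the other DMSO library left out instead, Cd44 was at -0.16 and Nfkb1 at -0.31 (without DMSO 1) and Nfkb2 at -0.20 (without DMSO 2). Each of these fits rests on a single DMSO library. The single far value of the list was Cxcl1, a neutrophil-attracting chemokine, named after its values were seen. It had 0.161 and 0.645 CPM with DMSO and 1.87 and 1.52 CPM with Aβ40, from 3, 12, 32 and 29 counts (edgeR, Benjamini-Hochberg adjusted p = 0.356).

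**Figure D4:**
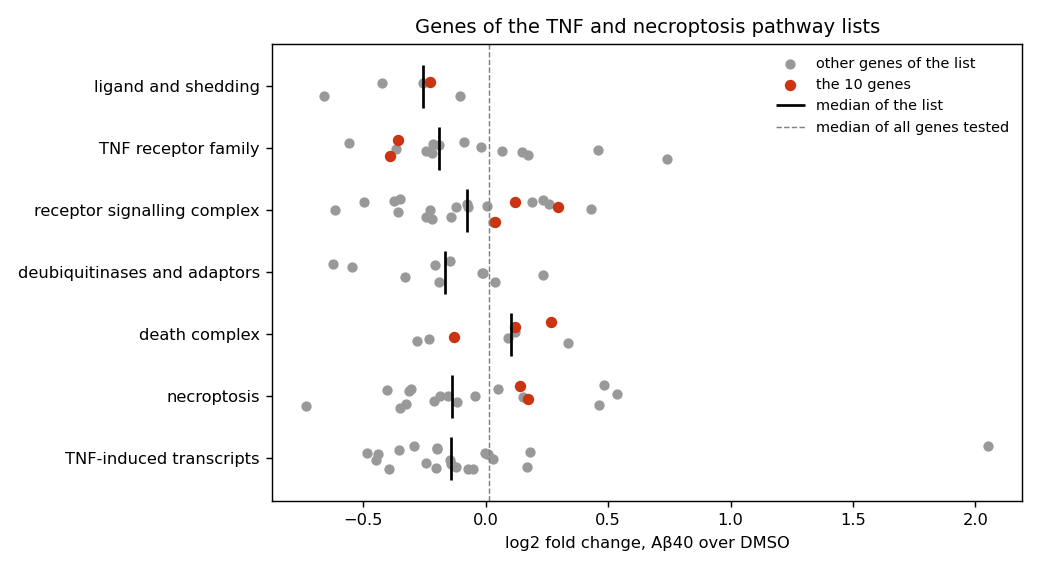
Log2 fold change, Aβ40 over DMSO, of the tested genes of 7 pathway lists (points; red, the 10 genes), with each list's median (bar) and the median of all tested genes (dashed line). The medians lie between -0.26 for ligand and shedding and 0.10 for the death complex, and the far point at 2.05 is Cxcl1.

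Likeness in pattern was described as the root mean square difference of log2 CPM, centred on each gene's mean over the 4 libraries, among 86 other genes of the lists with a mean of at least 5 CPM. Nearest to Tnf was Sod2, the mitochondrial superoxide dismutase (0.05), and nearest to Tnfrsf1a was Mapkapk2 (0.02). Nearest to Tnfrsf1b was Tab2, an adaptor of the kinase TAK1 (0.03), to Ripk1 was Bid, a caspase-8 substrate (0.05), and to Mlkl was Cdc37, a co-chaperone of kinases (0.02). Ripk3 had no gene closer than Map3k7, the gene of TAK1 (0.14). These are distances over 4 libraries and carry no test.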

How the data were processed

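Raw counts per gene and FPKM were deposited by the authors as whole-series tables of 54532 genes. The submitters' processing notes list build mm10 with the tools featureCounts 1.5.0-p3 and HISAT2 2.0.5, while the annotation release and the strand setting are not given there. As checked on the values, each deposited FPKM is a count over gene length and over 1 constant per library.

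The deposited counts of all genes were fitted in R 4.3.3 with edgeR 4.0.16 (filterByExpr, TMM, glmQLFit and glmQLFTest on group, two-sided), with Benjamini-Hochberg adjustment over 13479 genes and calls where that adjusted p was under 0.05, on 2 residual and 6.88 prior degrees of freedom. CPM are TMM-scaled, standard errors and 95% intervals are those of this fit, and SD are over 2 libraries. Depth is given in the report. Exons and overlapping genes are from GENCODE M21 (merged exons equal the deposited lengths) and promoters from RefSeq.

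The 10 genes and all lists were chosen with earlier results of these data known. Named genes were the 10, plus per list any called gene, the 2 most abundant and the 2 with the largest log2 fold change above a mean of 5 CPM. Genes outside this rule (Cxcl1, Hsp90aa1, Serpinb6a, Gm17084, Faddos, Lta, Timp3 and the cell type markers named singly) were chosen once their values had been seen. The alternatives tried were other scalings, DESeq2 1.42.0, limma-voom (limma 3.58.1), the likelihood ratio test, other filters, a fit restricted to protein-coding genes, a replicate block by number, single libraries left out, and limma-trend applied to the deposited FPKM as log2(FPKM + 1) and as log2(FPKM + 0.1). The labels do not say that a number marks a shared animal or day. Some genes that the naming rule selects are not reported here.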

Additional observations from a re-analysis of the deposited data

How the results depend on the processing

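Over all genes, 17 were called higher and 0 lower. DESeq2 called 94 and 36, the likelihood ratio test 160 and 61, no filter 185 and 70, library-size scaling 1 lower, while limma gave 0 higher on log2(FPKM + 1) and on log2(FPKM + 0.1). Leaving out single libraries gave 0 to 705 higher and 0 to 479 lower, the upper ends coming from fits without a DMSO library, in which the lone DMSO library is assumed to vary like the Aβ40 pair. Of the 10 genes, 0 were called higher or lower in these settings, except 1 higher (Casp8) without DMSO 2, so leaving out libraries gave 0 to 1. Among the other named genes, Rhbdf2, Ikbke, Tnip1, Zbp1, Cd44, Nfkb1 and Nfkb2 passed the threshold, each only with a DMSO library left out. Passing there rests on the same assumption about the lone DMSO library. With the replicate block 27 genes were called higher, 0 lower and 0 of the 10. Same-numbered libraries deviated from their group means in opposite ways (r = -0.23 over 13479 genes), and crossed pairing, added after seeing the data, called 445 higher, 276 lower and 0 of the 10.

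Some log2 fold changes changed sign. Under library-size scaling Tradd was at -0.00864 and Birc3 at -0.027, and under upper-quartile scaling Tnfrsf26 was at 0.00331. Leaving out single libraries gave -0.44 to 0.012 for Tnf, -0.088 to 0.14 for Tradd, -0.0053 to 0.21 for Ripk1, -0.28 to 0.00095 for Fadd, -0.079 to 0.47 for Ripk3 and -0.035 to 0.33 for Mlkl. The same ranges were -0.092 to 0.12 for Birc3, -0.48 to 0.098 for Chmp4b and -0.26 to 0.073 for Il1b. The FPKM order of the 10 genes was the same by TMM counts per kilobase, which use the same gene lengths. Within libraries at least 6 of the 10 kept their place. Depth limits Fadd most.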
